A study of Mus musculus with 20 samples.

Results

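Spinal cord RNA of wild type (WT) mice 17 days after induction of experimental autoimmune encephalomyelitis (EAE) was compared with that of naive WT mice. The change was taken from 1 linear model over the 16 arrays that hold naive, 17 dpi or 80 dpi cord (dpi, days post-induction). Of the 20 arrays in the series, 9 hold cord of either WT group. One of the 9 is a direct array, on which RNA of WT animal 1 at 17 dpi and of naive WT animal 2 was hybridised together, and it was also set against the modelled change. All animals were female C57BL/6 mice, 60 days old by the labels and 2 to 4 months old by the design text. The WT mice were littermates of transgenic (TG) mice that carry GFAP-IkappaBalpha-dn, an inhibitor of NF-kappaB driven by the promoter of the astrocyte gene Gfap. EAE mice had received 150 ug of MOG(35-55) peptide in complete Freund's adjuvant on days 0 and 7 and 500 ng of pertussis toxin on days 0 and 2. No injection of adjuvant or toxin alone is described for naive mice, so the effects of autoimmunity, adjuvant and toxin cannot be told apart.

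EAE is a rodent model of multiple sclerosis in which T cells that recognise a myelin protein enter the central nervous system, release interferon-gamma and other cytokines, and draw in monocytes. Macrophages and resident microglia then present antigen on MHC molecules and take up myelin, and neurons and oligodendrocytes are damaged. Astrocytes in the inflamed cord become reactive and release chemokines, many of them under control of NF-kappaB.

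The labels name WT animals 1 and 4 at 17 dpi and WT animals 2, 3 and 4 in the naive group (n = 2 and 3), whereas the design text states 3 animals for each time. Besides the direct array, WT cord at 17 dpi was hybridised against TG cord of the same time on 3 arrays and against WT animal 13 at 80 dpi on 1. Naive WT cord was hybridised against naive TG cord on 3 further arrays and against WT animal 14 at 80 dpi on 1. Each of the 9 arrays gave 43785 to 43884 log ratios, taken as log2. Their SD over probes was 0.730 on the direct array and lay between 0.303 and 1.07 on the 9 arrays, the widest being that of TG animal 3 over WT animal 4 at 17 dpi. The ratios carry no signal level, so the presence of cord markers could not be checked and a probe near background looks like any other.

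The files do not state which channel is the numerator. EAE was put over naive and TG over WT, and between the EAE times 17 dpi was the numerator in WT and 80 dpi in TG cord, a reading chosen with the values known, partly on MHC class II, macrophage and T cell genes. The direction of those 3 gene lists is therefore not independent evidence. Turning every array gives the same fit with all signs reversed, so the direction rests on this reading. Turning the direct array alone lowered the log-likelihood of the model (difference -111854), and so did reading all ratios in the order of the titles (difference -125719). Turning any other array of the model alone lowered it as well (differences from -118156 to -18125). All directions below hold for this reading.

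WT cord at 17 dpi differed from naive WT cord at 6087 of 43643 probes tested. Values were higher at 3239 probes (7.42%) and lower at 2848 (6.53%) at an adjusted p under 0.05 (limma moderated test, Benjamini-Hochberg), and 11825 probes had an unadjusted p under 0.05. With 1 probe a gene, the one with the smallest p, 2343 of 19073 named genes were higher (12.3%) and 1990 were lower (10.4%), and the median over all of them was -0.038. Genes of the interferon response, antigen presentation and phagocytes were among those that rose most, and neuronal genes among those that fell most. In whole cord, fewer cells of a type and less RNA per cell cannot be told apart. The count depended on single animals and arrays. It was 1269 without naive animal 2, whose arrays include the direct array, and 2140 without the direct array alone. Without the 80 dpi arrays it was 574, and 52 of 113 genes named in the text then lost their calls for this change. Leaving out WT animal 4 of the 17 dpi group, which leaves WT animal 1 alone, raised the count. The arrays of WT animal 4 include the widest array, and without that array alone the count was 15998. Below, leaving out WT animal 1 or naive animal 2 also removes the direct array, and leaving out WT animal 4 removes the widest. Over all probes, 1647 were called higher and 493 lower without the direct array, and 1061 and 208 without naive animal 2. List counts below in these fits are to be read beside these totals. Leaving out WT animal 1 or 4 leaves 1 WT animal at 17 dpi. A value given for either fit does not mean that the gene passed there.

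The 15 genes with the largest rise were led by Cxcl10, a chemokine that attracts activated T cells through Cxcr3. The direct array gave a log2 ratio of 4.78 for Cxcl10, and the arrays of 17 dpi over 80 dpi and of 80 dpi over naive gave 4.89 and 2.05. The 3 arrays of TG over WT cord at 17 dpi gave -1.62, -3.19 and -0.29, and the 3 naive arrays 0.75, -0.062 and 0.16. All arrays of EAE over naive or later cord were thus above 0, and TG cord was below WT cord on each array at 17 dpi. The modelled log2 change of Cxcl10 was 5.26 ± 0.80 (SE, adjusted p = 0.00128), a 38.2-fold difference. Next were Iigp1 (4.72 ± 0.55), an interferon-inducible GTPase that acts on the vacuoles of intracellular pathogens, and Gbp3 (4.39 ± 0.54), a guanylate-binding protein. The related GTPases Tgtp1 (3.96 ± 0.35) and Igtp (3.82 ± 0.34) and the interferon-induced Trim30a (3.85 ± 0.43) were also among them. The MHC class II chains H2-Ab1 (4.23 ± 0.32) and H2-Aa (3.93 ± 0.33) rose with cathepsin S, Ctss (3.74 ± 0.50), the protease that trims the invariant chain from class II molecules. The remaining genes were Lyz1 (4.40 ± 0.52), a lysozyme, Wfdc17 (4.14 ± 0.37), Ctsc (4.10 ± 0.33), which encodes cathepsin C, Plbd1 (3.80 ± 0.38), Ms4a6d (3.75 ± 0.19) and Arg1 (3.90 ± 0.27), the arginase of alternatively activated macrophages. The 2 probes of Tgtp1 gave 0.94 and 3.96. Lyz1, Tgtp1, Chil4, the H2 genes, the globins and the ribosomal protein genes have close copies in the mouse genome, and how far their probes tell the copies apart is uncertain.

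The promoters of 4 of these genes are shown because they carry the interferon-stimulated response element (ISRE), the site of interferon-activated factors, as GAAA, any 2 bases and GAAA on either strand. Capitals mark the ISRE letters and, in Cxcl10, also a match of GGGA, any 2 bases and TTCC, the kappaB type of site that NF-kappaB binds. The sequences are from RefSeq (GRCm38.p6) and run from 250 bases before to 50 bases after a start of the gene. They lie at chr5:92348840-92349139 (minus strand, Cxcl10), chr3:142559794-142560093 (plus strand, Gbp3), chr11:58199306-58199605 (plus strand, Igtp) and chr3:95526536-95526835 (plus strand, Ctss).
Cxcl10: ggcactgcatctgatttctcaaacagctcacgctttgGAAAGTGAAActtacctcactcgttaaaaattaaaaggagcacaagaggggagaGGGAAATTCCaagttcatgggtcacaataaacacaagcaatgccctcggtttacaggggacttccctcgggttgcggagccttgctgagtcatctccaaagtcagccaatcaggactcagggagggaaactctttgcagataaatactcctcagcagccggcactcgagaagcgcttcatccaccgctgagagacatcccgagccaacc
Gbp3: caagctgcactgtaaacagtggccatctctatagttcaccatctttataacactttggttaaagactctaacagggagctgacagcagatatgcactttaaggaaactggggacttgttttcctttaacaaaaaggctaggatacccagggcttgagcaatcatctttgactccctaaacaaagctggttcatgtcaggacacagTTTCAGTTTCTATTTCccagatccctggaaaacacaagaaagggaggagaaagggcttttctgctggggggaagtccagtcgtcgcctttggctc
Igtp: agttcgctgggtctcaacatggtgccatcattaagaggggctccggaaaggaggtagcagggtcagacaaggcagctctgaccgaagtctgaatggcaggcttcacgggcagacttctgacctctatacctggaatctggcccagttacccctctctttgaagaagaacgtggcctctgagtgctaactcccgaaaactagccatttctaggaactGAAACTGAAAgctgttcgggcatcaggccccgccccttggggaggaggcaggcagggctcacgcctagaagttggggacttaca
Ctss: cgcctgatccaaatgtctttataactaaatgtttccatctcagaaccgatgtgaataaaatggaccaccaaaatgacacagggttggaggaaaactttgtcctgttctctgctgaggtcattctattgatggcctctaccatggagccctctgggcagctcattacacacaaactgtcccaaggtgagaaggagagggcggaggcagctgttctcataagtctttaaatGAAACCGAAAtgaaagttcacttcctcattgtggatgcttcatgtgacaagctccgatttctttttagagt
The ISRE letters start at base 38 in Cxcl10, 217 in Igtp and 230 in Ctss, and in Gbp3 2 overlapping matches on the opposite strand start at bases 206 and 212. A second promoter of Gbp3, at chr3:142560106-142560405, held no ISRE letters. A gene was counted where any of its promoters held the letters. Of the 15 genes, 11 had a promoter in the table and 6 of the 11 held the ISRE letters, the other two being Tgtp1 and Trim30a. The share was 7.15% among 1917 genes called higher, 3.0% among 1598 called lower and 3.99% among all 27025 genes with a promoter. The kappaB letters were in 1.93% of promoters of genes called higher, 1.69% of those called lower and 1.63% of all. These shares describe letters in a fixed window and were not tested.

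The 15 genes with the largest fall were led by Snhg11, a non-coding RNA host gene. Its direct ratio was -2.59, and the arrays of 17 dpi over 80 dpi and of 80 dpi over naive gave -1.81 and -0.65. The modelled change of Snhg11 was -2.46 ± 0.16 (adjusted p = 4.86e-06), and its 4 probes ran from -2.46 to -1.11, all below 0. The neuronal genes Snap25 (-2.25 ± 0.49), a SNARE protein of synaptic vesicle fusion, Glra1 (-1.99 ± 0.47), a glycine receptor subunit of spinal inhibition, and Scn8a (-1.89 ± 0.34), a sodium channel of axon initial segments and nodes, fell too. So did Eef1a2 (-1.98 ± 0.14), the elongation factor of neurons and muscle, Map1b (-1.82 ± 0.26), a microtubule protein of axons, Pcsk1n (-1.82 ± 0.26), a neuroendocrine peptide precursor, Ndrg4 (-2.11 ± 0.60) and the imprinted non-coding RNA Meg3 (-1.91 ± 0.24). Glial genes of the set were Bcan (-2.01 ± 0.26), the matrix proteoglycan brevican, the transcription factor gene Sox8 (-1.77 ± 0.48) and Mbp (-1.85 ± 0.52), which encodes myelin basic protein. The ubiquitin-conjugating genes Ube2b (-2.44 ± 0.25) and Ube2ql1 (-2.0 ± 0.48) and the haemoglobin gene Hba-a1 (-1.87 ± 0.35) completed it. Probes of 1 gene did not always go together, since the 6 probes of Ube2b ran from -2.44 to 0.15, the 2 of Map1b from -1.82 to 0.15 and the 3 of Mbp from -1.85 to 0.089. Other genes had probes below 0 but of unlike size. The 2 probes of Sox8 gave -1.77 and -0.10, those of Ndrg4 -2.11 and -0.64 and those of Scn8a -1.89 and -0.83. The 3 of Pcsk1n ran from -1.82 to -0.21 and the 3 of Snap25 from -2.25 to -0.54.

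To set the direct array against the rest of the network, the model was fitted without it, and the dye effect of that fit was taken off the direct ratio. Both estimates still draw on WT animal 1 and naive animal 2. Over the 6087 called probes the median absolute value was 0.779 on the direct array and 0.522 in the model without it, and the slope of the former on the latter was 1.11. These probes were called in the fit that holds the direct array, a choice that favours larger direct values, so neither number compares the 2 estimates fairly. Without the direct array 1647 probes were called higher and 493 lower. Of these, 1539 (of 3239) and 488 (of 2848) were also called the same way with it. The 15 highest and 15 lowest genes were taken only from those with the same sign on the direct array and in the fit without it. They therefore do not show how well the 2 estimates agree. All 15 of the genes with the largest rise were called without the direct array. For 4 of them the direct ratio was farther from 0 than the rest of the network, namely Trim30a (4.80 direct and 3.23 without), Plbd1 (4.46 and 3.17), Ms4a6d (4.07 and 3.58) and Igtp (3.94 and 3.74). Lyz1 (2.80 and 5.60) and Ctss (2.34 and 4.76) were lower on the direct array.

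**Figure D1:**
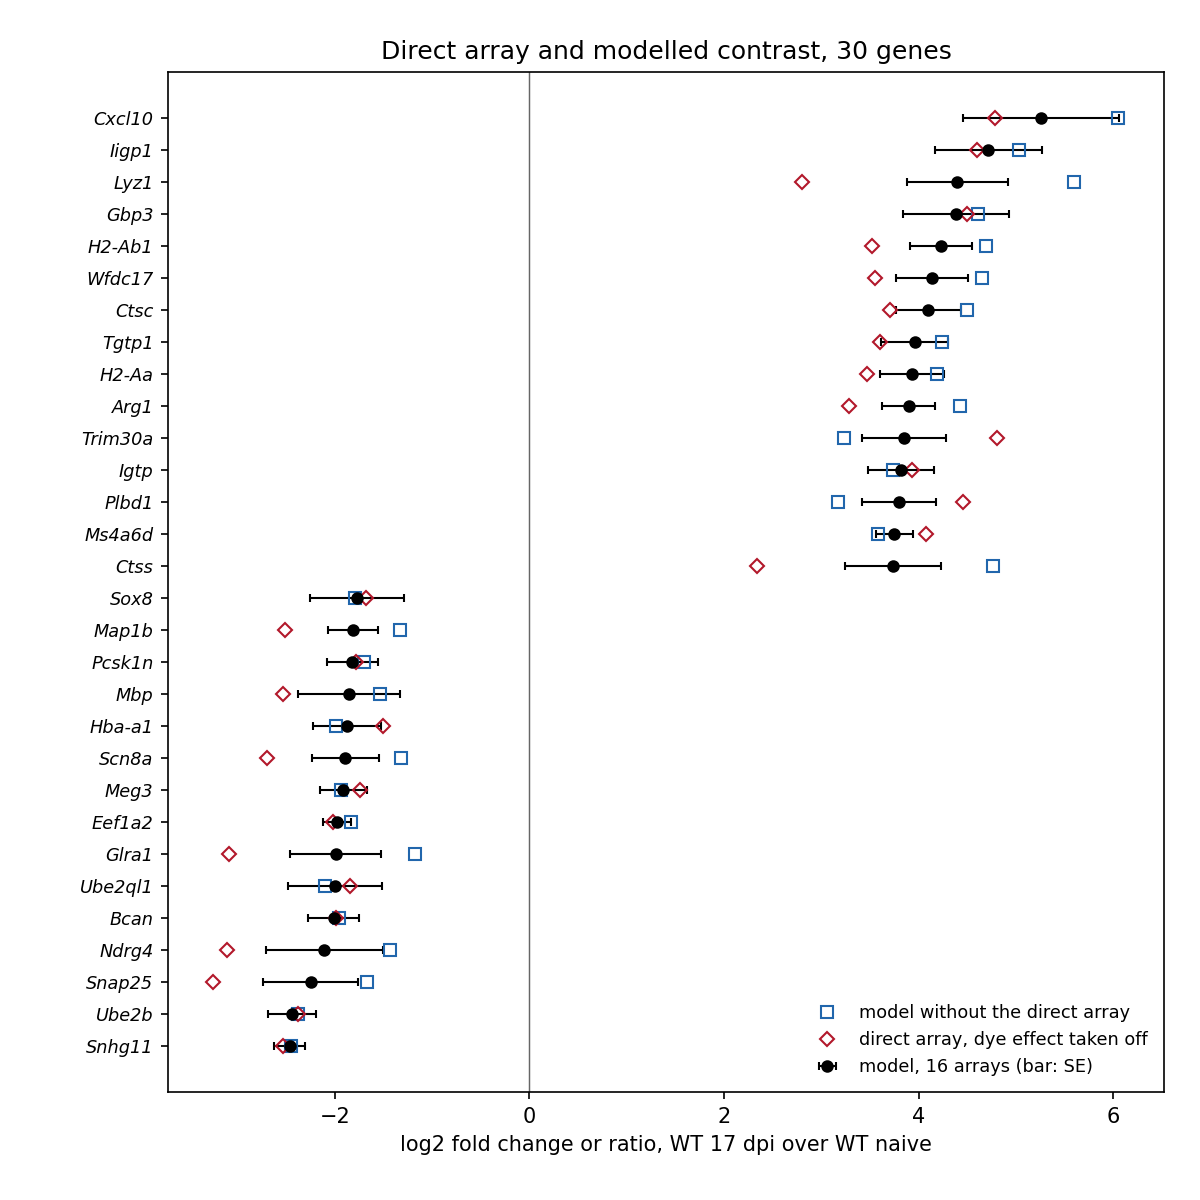
Log2 change in WT cord at 17 dpi over naive (horizontal axis) of the 15 genes that rose most and the 15 that fell most (vertical axis). Only genes with the same sign on the direct array and in the fit without it were eligible. Black points are the 16-array model with its SE, blue squares the model without the direct array and red diamonds the direct array with the dye effect taken off, and the direct value of Snap25, -3.25, lies farther from 0 than its value without the direct array, -1.67.

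Of the 15 genes with the largest fall, 8 were called without the direct array and 7 were not. The 7 are Snap25 (-3.25 on the direct array and -1.67 without it), Ndrg4 (-3.10 and -1.43), Glra1 (-3.09 and -1.18), Scn8a (-2.70 and -1.32), Mbp (-2.54 and -1.54), Ube2ql1 (-1.84 and -2.10) and Sox8 (-1.68 and -1.80). Their adjusted p without the direct array lay between 0.0699 and 0.39. The direct ratio was farther from 0 for 10 of the 15. Snhg11 (-2.53 and -2.44), Eef1a2 (-2.02 and -1.83), Bcan (-1.99 and -1.95) and Ube2b (-2.38 and -2.38) were close in both. The same 7 lost their calls without WT animal 1, and these 7 and Hba-a1 did so without naive animal 2. Both animals are on the direct array, so leaving out either removes it again, and these losses are not separate from those above. Ndrg4, Mbp and Sox8 also lost their calls without naive animal 4. The genes were ranked on a fit that holds the direct array and kept only where the sign was the same without it, so these differences are a description.

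Interferon response genes were higher in 38 of 43 cases and lower in 0, with a median of 2.20 against -0.038 over all genes. Apart from the GTPases above, Ifi27l2a (2.79 ± 0.20, adjusted p = 7.14e-06) and Irf8, a transcription factor of macrophages and microglia (2.38 ± 0.17), rose. On the direct array Ifi27l2a gave 3.12, and on the 3 arrays of TG over WT at 17 dpi -2.51, -1.85 and -1.56. The median of the list was 2.63 on the direct array with the dye effect taken off and 1.97 in the model without it. Without naive animal 2, 26 members were called.

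Antigen presentation genes rose in both classes. MHC class I and peptide loading genes, which show cell proteins to CD8 T cells, were higher in 19 of 21 cases, with a median of 2.19. Among them Erap1, the peptidase that trims class I peptides, rose by 2.80 ± 0.19, H2-T22 by 1.90 ± 0.13 and B2m, the common light chain, by 2.26 ± 0.19. MHC class II genes, which present to CD4 T cells, were higher in 8 of 11 cases, with a median of 1.89. The peptide exchange genes H2-DMb1 (2.90 ± 0.17) and H2-DMb2 (2.54 ± 0.17) and the invariant chain Cd74 (2.77 ± 0.27) rose with H2-Aa and H2-Ab1. The 4 probes of H2-Ab1 ran from 2.44 to 4.23. No member of either list was called lower, and with any 1 of the 5 WT animals left out at least 16 class I and 6 class II genes were called.

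**Figure D2:**
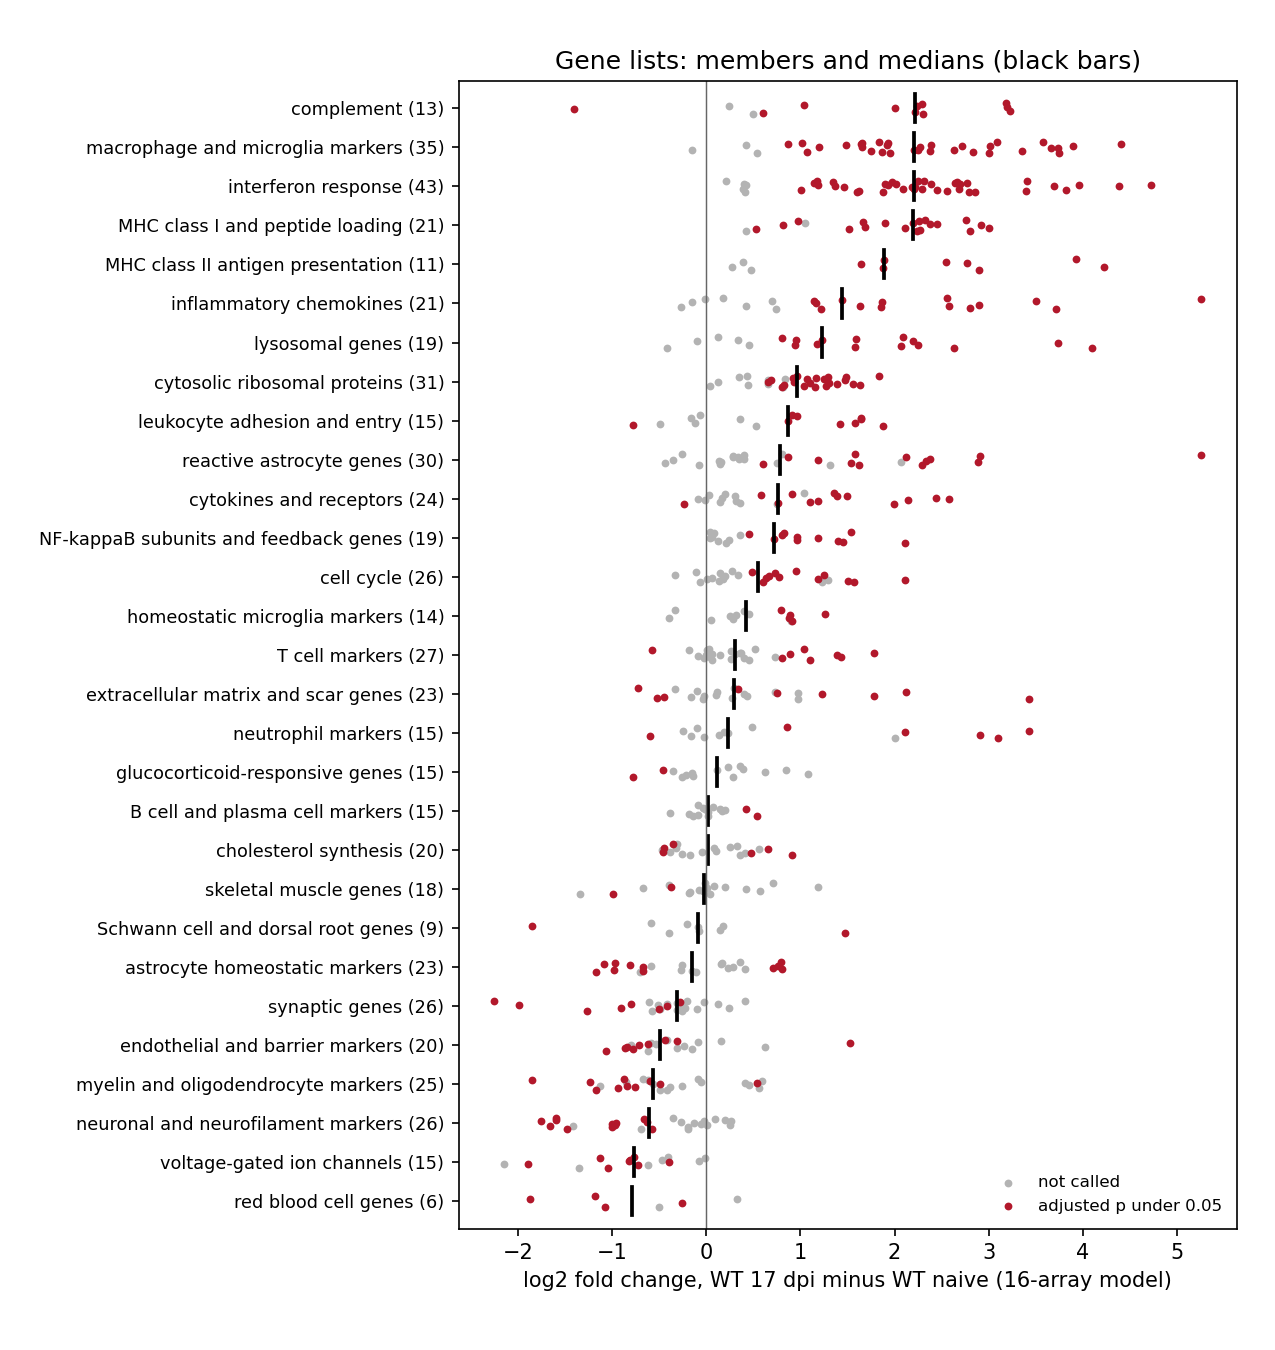
Log2 fold change of the members of 29 gene lists in WT cord at 17 dpi against naive WT cord (horizontal axis), with the number of measured genes beside each list name. Red points passed an adjusted p of 0.05, grey points did not, and black bars are list medians, which run from 2.22 for complement genes to -0.78 for red blood cell genes.

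Macrophage and microglia markers were higher in 32 of 35 cases and lower in 0, with a median of 2.21. Ncf1, a subunit of the phagocyte NADPH oxidase (1.92 ± 0.11, adjusted p = 2.29e-06), Aif1, which encodes Iba1 (2.83 ± 0.23), Chil4, a chitinase-like protein (3.57 ± 0.21), and Gpnmb, a glycoprotein of lipid-laden phagocytes (3.0 ± 0.40), rose. The 2 probes of Gpnmb disagreed (0.23 and 3.0), and all its values here are those of the latter. Markers of homeostatic microglia were higher in 5 of 14 cases, with a median of 0.43. Selplg (0.91 ± 0.13) and Tgfbr1 (1.26 ± 0.21) rose, and P2ry12, the purinergic receptor of resting microglia, gave 0.90 ± 0.29 (adjusted p = 0.0581). The count of this list was 0 without naive animal 2, and its median was 0.48 without WT animal 4. Lysosomal genes of phagocytes were higher in 14 of 19 cases, with a median of 1.23, including Ctsc and the asparaginyl endopeptidase Lgmn (1.23 ± 0.11). Complement genes were higher in 10 of 13 cases and lower in 1, with a median of 2.22. The C1q chains C1qc (2.30 ± 0.16) and C1qb (2.24 ± 0.17) and factor B, Cfb (3.18 ± 0.27), rose.

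Chemokines, cytokines and adhesion molecules rose in part. Inflammatory chemokines were higher in 14 of 21 cases, with a median of 1.45. Cxcl9, another ligand of Cxcr3, rose by 3.71 ± 0.22, Ccl5, which attracts T cells and monocytes, by 3.50 ± 0.24, and Ccl2, a monocyte chemokine, by 2.80 ± 0.49. The count was 7 without naive animal 2. Ccl2 was then not called. Without WT animal 1, a fit that leaves 1 WT animal at 17 dpi, Ccl2 fell from 2.80 to 2.2. Cytokines and receptors of T helper cells and macrophages were higher in 12 of 24 cases and lower in 1, with a median of 0.76. The interferon-gamma receptor chain Ifngr1 (1.99 ± 0.13), the interleukin-1 antagonist Il1rn (1.39 ± 0.18), Il1b (2.58 ± 0.50), Ifng (0.76 ± 0.16) and Tnf (0.59 ± 0.14) rose. Il1b, Ifng and Tnf were not called without the direct array, and the count was then 7. Il1b gave 1.0 without WT animal 1. Leukocyte adhesion and entry genes were higher in 8 of 15 cases and lower in 1, with a median of 0.87. Vcam1, the endothelial adhesion molecule that lymphocyte integrins bind, rose by 1.88 ± 0.13, and Itgb2, the common chain of the leukocyte integrins, by 1.64 ± 0.14. B2m, Ccl2, Il1b, Ifng, Tnf, Serpina3n and Mog were named after their values were seen.

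Lymphocyte and neutrophil markers were called less evenly. T cell markers were higher in 7 of 27 cases and lower in 1, with a median of 0.30. Nkg7, a granule protein of cytotoxic cells (1.78 ± 0.33), Ltb, lymphotoxin beta (1.11 ± 0.19), and Cd4 (1.03 ± 0.21, adjusted p = 0.00715) rose, and the 2 probes of Cd4 gave 0.030 and 1.03. The higher count was 1 without the direct array and 0 without naive animal 2, and the list median was 0.26 without WT animal 4. B cell and plasma cell markers were higher in 2 of 15 cases, Cd37 (0.54 ± 0.14) and Cd79b (0.42 ± 0.12), with a list median of 0.021, a share near the 12.3% of all genes called higher. Neither was called without the direct array. Neutrophil markers were higher in 5 of 15 cases and lower in 1, with a median of 0.23. The formyl peptide receptor Fpr2 (3.10 ± 0.22) and the calprotectin subunit S100a8 (3.43 ± 0.58) rose. S100a8 was not called without naive animal 2. The median of the neutrophil list was 1.17 on the direct array with the dye effect taken off and -0.077 in the model without it.

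Reactive astrocyte genes were higher in 13 of 30 cases and lower in 0, with a median of 0.78. S100a10 (1.62 ± 0.17), the protease inhibitor Timp1 (2.12 ± 0.23), lipocalin 2, Lcn2 (2.91 ± 0.58), the serpin Serpina3n (2.29 ± 0.54) and vimentin, Vim (2.37 ± 0.32), rose, and other cell types also express several of them. The 2 probes of Vim gave 0.35 and 2.37. Serpina3n was not called without naive animal 2 or naive animal 4, and its value fell from 2.29 to 1.54 without WT animal 1. Gfap, the intermediate filament gene of astrocytes, gave a direct ratio of 0.58 and ratios of -0.0070 for 17 dpi over 80 dpi and 1.68 for 80 dpi over naive. Its modelled change was 0.75 ± 0.30 and did not pass (adjusted p = 0.12). The list median was 0.21 with WT animal 1 left out. Leaving out WT animal 4 gave 1.06. The list of NF-kappaB subunits and feedback genes was higher in 11 of 19 cases, with a median of 0.72. Among them were Cebpb (2.11 ± 0.26), held in the list though not a subunit of NF-kappaB, and the apoptosis regulator Cflar (0.80 ± 0.12). Nfkbia, which encodes IkappaBalpha, gave 0.089 ± 0.50 (adjusted p = 0.94), and the 3 arrays of TG over WT at 17 dpi gave -1.22, 1.39 and -0.96 for it, of both signs. The NF-kappaB count was 3 without naive animal 2, 4 without the direct array and 17 without WT animal 4. Homeostatic astrocyte markers were higher in 4 of 23 cases and lower in 7. The GABA transporter Slc6a11 (-1.17 ± 0.20) and the amino acid transporter Slc7a10 (-0.80 ± 0.14) fell, whereas the glutamate transporter Slc1a2 (0.80 ± 0.14) and the folate enzyme Aldh1l1 (0.79 ± 0.14), both widely used astrocyte markers, rose. The 5 probes of Slc1a2 ran from -0.27 to 0.80, and no member of the list was called without naive animal 2.

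Cytosolic ribosomal protein genes were higher in 22 of 31 cases and lower in 0, with a median of 0.96. Rplp0 (1.16 ± 0.076, adjusted p = 5.49e-06) and Rps19 (1.25 ± 0.12) are examples, and the 3 probes of Rps19 ran from 0.065 to 1.25. The list median was 0.55 on the direct array with the dye effect taken off and 1.32 in the model without it. Cell cycle genes were higher in 12 of 26 cases, with a median of 0.55, including the proliferation marker Mki67 (1.57 ± 0.23) and the replication helicase subunit Mcm3 (1.25 ± 0.19). Without the direct array 3 of them were called, and without naive animal 2 1. Extracellular matrix and scar genes were higher in 6 of 23 cases and lower in 3, with a median of 0.29. Tgfbi, a matrix protein that macrophages also make, rose by 3.43 ± 0.28.

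Neuronal genes fell in part. Neuronal and neurofilament markers were lower in 12 of 26 cases and higher in 0, with a median of -0.60. Uchl1, a deubiquitinase abundant in neurons (-1.48 ± 0.16, adjusted p = 0.000123), peripherin, Prph (-1.75 ± 0.25), and Nefm, the medium neurofilament chain (-1.60 ± 0.30), fell. Nefl, the light chain, gave -0.69 ± 0.40 (adjusted p = 0.307). Synaptic genes were lower in 8 of 26 cases (median -0.31), including Slc32a1, the vesicular transporter of GABA and glycine (-1.26 ± 0.16), and the vesicle protein Sv2a (-0.79 ± 0.12). Voltage-gated ion channel genes were lower in 8 of 15 cases (median -0.76), including the potassium channel genes Kcnc1 (-1.05 ± 0.14) and Kcnab2 (-0.81 ± 0.14). Without the direct array 3 neuronal, 2 synaptic and 3 channel genes were called lower. Without naive animal 2 these counts were 2, 1 and 1. The 3 list medians were -0.45, -0.21 and -0.62 without WT animal 1 and -0.53, -0.39 and -0.70 without WT animal 4.

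Myelin and oligodendrocyte markers were lower in 9 of 25 cases and higher in 1, with a median of -0.56. Besides Mbp, the small heat shock protein gene Cryab (-1.17 ± 0.20) and plasmolipin, Pllp (-1.23 ± 0.23), fell. Mog, the source of the immunising peptide, gave -1.13 ± 0.37 and did not pass (adjusted p = 0.0657). No member was called lower without the direct array, without WT animal 1 or without naive animal 2. With WT animal 4 left out the list median was -0.70, and with WT animal 1 left out it was -0.11. The list median was -0.96 on the direct array with the dye effect taken off and -0.24 in the model without it. For Mbp the direct array gave -2.29 and the array of 17 dpi over 80 dpi -2.13, while the naive arrays of TG over WT gave -0.65, 2.42 and -0.51, as wide a range as those differences.

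Endothelial and barrier markers were lower in 8 of 20 cases and higher in 1, with a median of -0.48. Slco1a4, a transporter of the blood-brain barrier, fell (-1.07 ± 0.14), and Ly6c1, which endothelial cells and monocytes express, rose (1.53 ± 0.31). Without the direct array 1 member was called lower. Red blood cell genes were lower in 4 of 6 cases, Hba-a2 (-1.07 ± 0.19) and Hbb-bt (-1.18 ± 0.31) among them, and the count was 0 without naive animal 2. Skeletal muscle genes were lower in 2 of 18 cases, Pygm (-0.98 ± 0.14) and Ryr1 (-0.38 ± 0.11), with a list median of -0.024. Ryr1 was not called without the direct array, WT animal 1 or naive animal 2. The muscle, Schwann cell, glucocorticoid and cholesterol synthesis counts are near the shares of all genes called (12.3% higher and 10.4% lower). The part of blood and muscle RNA in the other changes was not tested. Of 9 Schwann cell and dorsal root genes Egr2 was higher (1.48 ± 0.33) and Mbp lower, and Egr2 gave 0.67 without the direct array and was then not called, nor was it without naive animal 2. Glucocorticoid-responsive genes were lower in 2 of 15 cases, Tsc22d3 (-0.78 ± 0.15) and Klf9 (-0.46 ± 0.089), with a list median of 0.11, and neither was called without the direct array, WT animal 1 or naive animal 2. Of 20 genes of cholesterol synthesis 3 were higher, such as Ebp (0.92 ± 0.15), and 3 lower, such as Dhcr7 (-0.45 ± 0.10). Dhcr7 was not called without the direct array or naive animal 2. Without WT animal 1 both moved nearer 0, Ebp from 0.92 to 0.63 and Dhcr7 from -0.45 to -0.35.

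A route from naive to 17 dpi through 80 dpi leaves out the direct array. It joins the array of WT animal 1 at 17 dpi over WT animal 13 at 80 dpi and that of WT animal 14 at 80 dpi over naive animal 4, with no replicate of either. The numerator was in Cy5 on the former and in Cy3 on the latter. Over the 6087 called probes the median absolute sum of the 2 ratios was 0.429. Arg1 gave 4.88 for 17 dpi over 80 dpi and -0.28 for 80 dpi over naive, Chil4 gave 4.02 and -0.0057, and Cfb gave 3.78 and -0.036. The interferon GTPases Tgtp1 (4.11 and 0.37), Igtp (3.75 and 0.26) and Iigp1 (4.38 and 0.81) also had most of their difference between 17 and 80 dpi. Lyz1 (-0.087 and 5.51), Gpnmb (-2.16 and 4.28), S100a8 (-1.90 and 4.97), Vim (0.40 and 3.54) and C1qc (-0.16 and 2.89) had most of it between 80 dpi and naive. These genes were chosen after their values were seen.

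**Figure D3:**
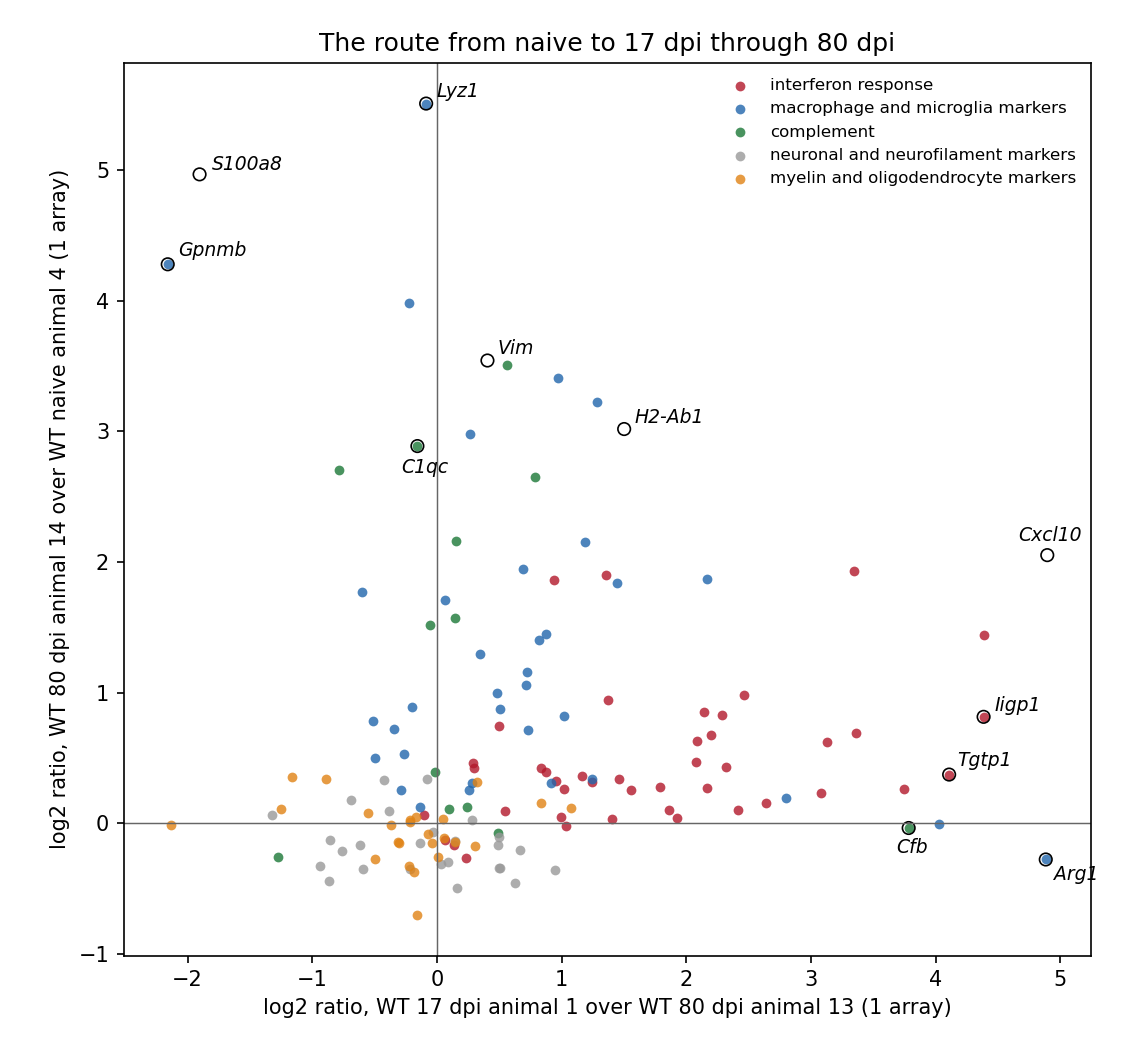
Log2 ratio of WT 17 dpi over WT 80 dpi on 1 array (horizontal axis) and of WT 80 dpi over naive WT on another (vertical axis) for members of 5 gene lists, with labelled genes circled. Tgtp1 lies along the horizontal axis (4.11 and 0.37), C1qc along the vertical axis (-0.16 and 2.89), and Cxcl10 was high on both (4.89 and 2.05).

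In the model, 1294 of 43643 probes were higher at 80 dpi than at 17 dpi in WT cord (2.96%) and 1591 lower (3.65%). This comparison shares the 17 dpi animals with the one above. Arg1 (-4.12 ± 0.26, adjusted p = 2.16e-05), Chil4 (-3.78 ± 0.21), Cfb (-3.17 ± 0.27), Tgtp1 (-3.49 ± 0.34), Igtp (-3.28 ± 0.33), Iigp1 (-3.48 ± 0.54) and Cxcl10 (-3.33 ± 0.79) fell from 17 to 80 dpi. Gpnmb rose further (1.58 ± 0.40, adjusted p = 0.0358). Lyz1 (0.51 ± 0.51), Vim (0.28 ± 0.31), C1qc (0.20 ± 0.16) and S100a8 (1.49 ± 0.57) did not pass. Without WT animal 1, Cxcl10, Iigp1 and Gpnmb lost their calls (-2.08, -2.65 and 0.64). Gpnmb also did so without naive animal 2 or naive animal 4, and Cxcl10 without naive animal 4. With 1 probe a gene, 6.12% of all genes were lower at 80 dpi and 4.58% higher. By list, 29 of 43 interferon response genes and 13 of 21 class I genes were lower at 80 dpi, beside 15 of 35 macrophage and microglia markers, 4 of 19 lysosomal genes and 3 of 13 complement genes. The median changes of these lists from 17 to 80 dpi were -1.54, -1.04, -0.73, -0.10 and -0.33. Also lower at 80 dpi were 16 of 31 ribosomal protein genes (list median -0.67) and 5 of 11 class II genes (-1.10). So were 8 of 21 inflammatory chemokines (-0.56) and 8 of 20 cholesterol synthesis genes (-0.27). The difference between lists was not tested.

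The change from naive to 17 dpi was also set against that of TG cord through an interaction term (TG minus WT). The difference was below 0 at 1334 probes (3.06%) and above 0 at 351 (0.804%). Arg1 changed by 3.90 in WT and 0.079 in TG cord, a difference of -3.82 ± 0.29 (adjusted p = 3.72e-05). On the 3 arrays of TG over WT at 17 dpi Arg1 gave -3.65, -3.35 and -4.56, and on the naive arrays 0.28, -0.14 and 0.26. Arg1 was named for the size of this difference and these arrays enter its estimate, so they are not separate evidence. Chil4 (-3.66 ± 0.23), H2-Aa (-3.64 ± 0.35), H2-Ab1 (-3.56 ± 0.34), Lyz1 (-3.45 ± 0.55), Ccl5 (-3.35 ± 0.26), Gpnmb (-3.33 ± 0.43), Tgtp1 (-3.24 ± 0.37), Iigp1 (-3.13 ± 0.59) and Cfb (-3.11 ± 0.29) followed. For Cxcl10, 5.26 in WT and 2.99 in TG cord, the difference did not pass (-2.26 ± 0.85, adjusted p = 0.178).

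With 1 probe a gene, the one chosen in the WT comparison, the difference was called below 0 for 4.91% of all genes and above 0 for 0.687%. By list, it was called below 0 for 24 of 35 macrophage and microglia markers, 22 of 43 interferon response genes, 16 of 21 class I and 8 of 11 class II genes, 13 of 19 lysosomal genes and 9 of 13 complement genes. It was called in either direction for none of the myelin, synaptic and ion channel genes, and above 0 for 1 of 26 neuronal genes, Uchl1. Among called differences the most positive were those of Hba-a1 (1.76 ± 0.37) and Hbb-bt (1.55 ± 0.33), haemoglobin chains, Serpinb1c (1.37 ± 0.26), Prr18 (1.35 ± 0.31), the GABA receptor subunit Gabra2 (1.32 ± 0.25), Lratd1 (1.30 ± 0.24), the neurotensin receptor Ntsr2 (1.25 ± 0.18), the cell cycle inhibitor Cdkn1c (1.17 ± 0.19), Uchl1 (0.92 ± 0.17) and Igfbp5 (0.88 ± 0.19). In WT cord Prr18 (-1.40 ± 0.29), Gabra2 (-0.99 ± 0.23), Ntsr2 (-1.51 ± 0.17), Cdkn1c (-0.89 ± 0.18) and Igfbp5 (-0.62 ± 0.17) fell, and Serpinb1c (-0.77 ± 0.25) and Lratd1 (-0.69 ± 0.23) did not pass. The WT falls of Prr18, Gabra2, Cdkn1c and Igfbp5 were not called without the direct array or without naive animal 2. That of Igfbp5 was also lost without naive animal 3 or 4, and that of Gabra2 without naive animal 4. Of the 20 differences named here, 7 were not called without naive animal 2 (Hba-a1, Hbb-bt, Serpinb1c, Prr18, Gabra2, Igfbp5 and Iigp1), 4 without naive animal 3 (Hba-a1, Hbb-bt, Prr18 and Igfbp5) and 5 without naive animal 4 (Hbb-bt, Serpinb1c, Gabra2, Igfbp5 and Iigp1). Prr18 was not called without the direct array, and without the 80 dpi arrays 18 of the 20 were not, the exceptions being Arg1 and Chil4. The WT and TG changes share the arrays that pair both genotypes.

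**Figure D4:**
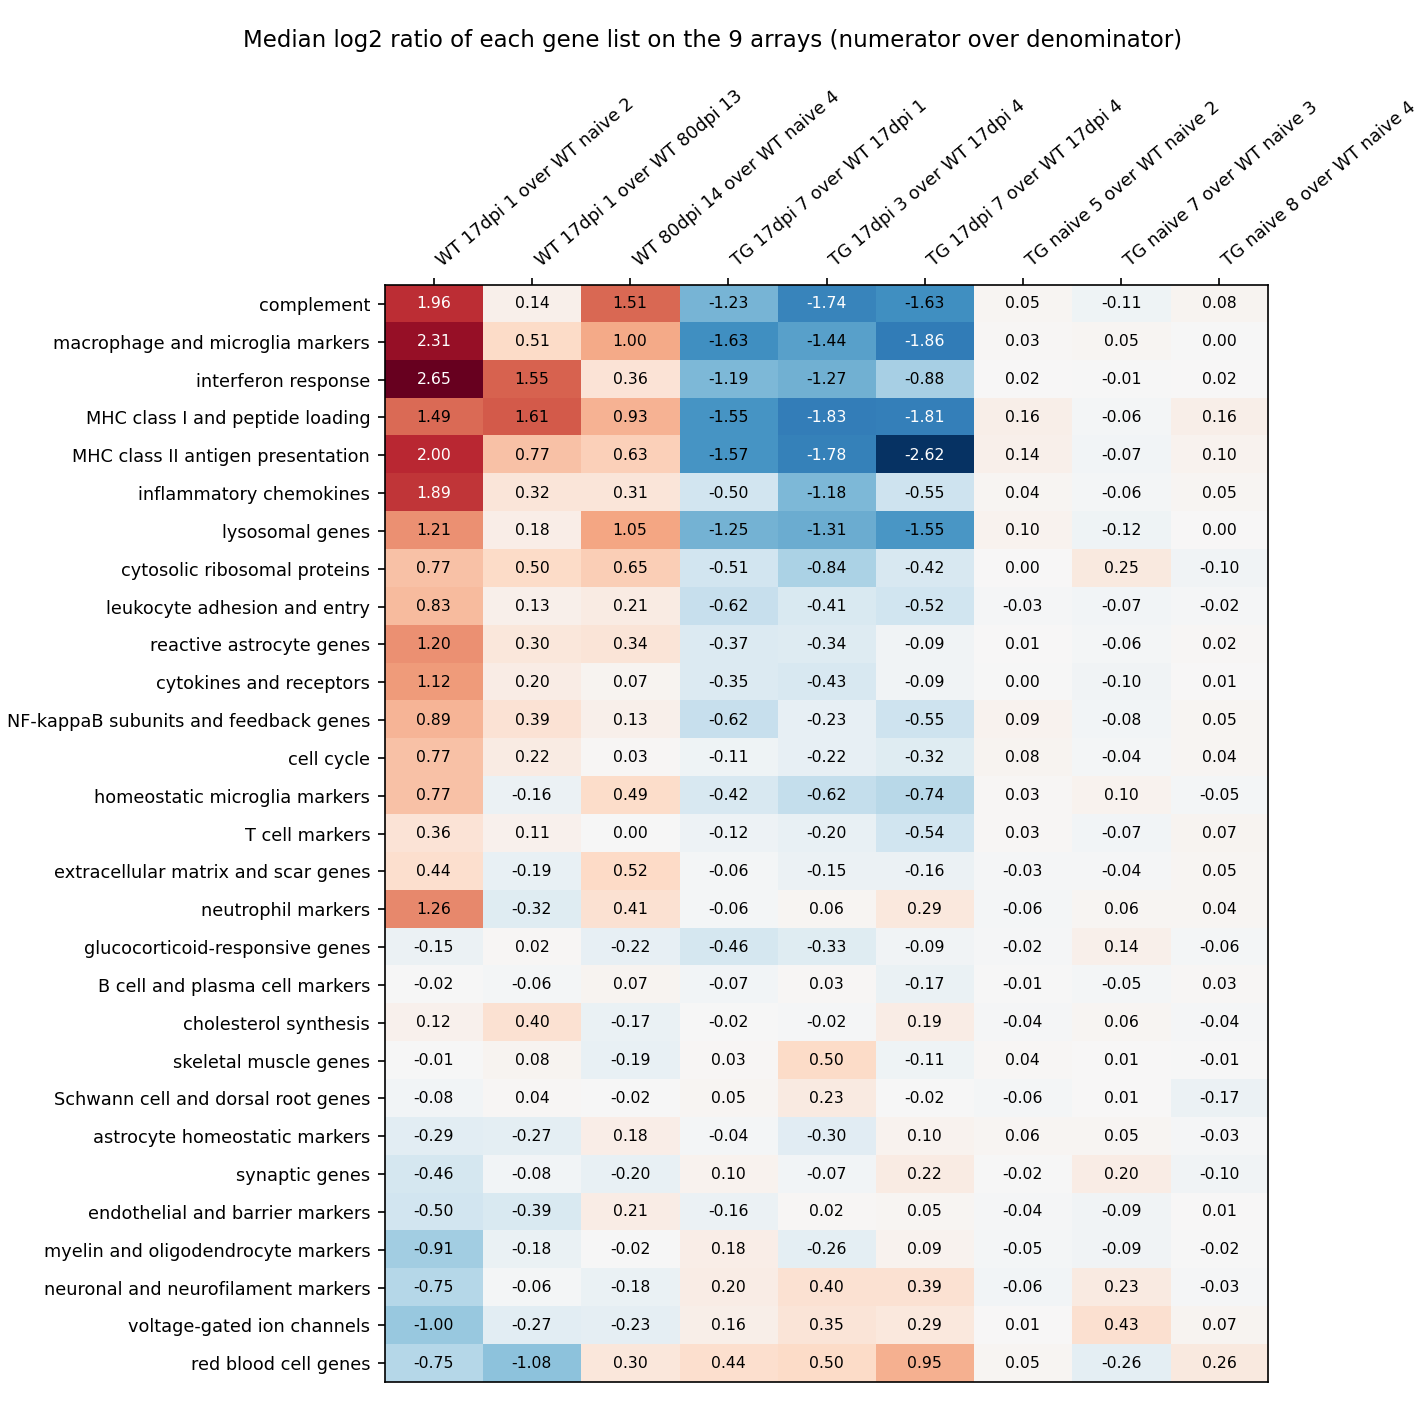
Median log2 ratio of each gene list (rows) on each of the 9 arrays that hold WT 17 dpi or WT naive cord (columns, numerator over denominator with animal numbers), coloured from blue (below 0) to red (above 0). On the 3 naive arrays of TG over WT the interferon median lay between -0.010 and 0.016, on the 3 arrays at 17 dpi between -1.27 and -0.88, and on the direct array at 2.65.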

How the data were processed

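Total RNA of mouse spinal cord was amplified, coupled to Cy3 or Cy5 and hybridised on 2-colour arrays, per the labels' protocols. The deposited table holds log ratios for 44290 features, taken as log2; the authors normalised them by global loess within arrays and quantile normalisation between arrays, per the series design text. The scanner and the handling of background and of weak spots were not stated in the texts used. Arrays have no read depth, and their number limits the precision.

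Probes with a value on the direct array and values on at least 12 of 16 arrays were kept (43643). Each was fitted with group coefficients and a dye term by generalised least squares, with 1 pooled correlation (0.25) for arrays that share an animal, followed by limma's moderated test (R 4.3.3, limma 3.58.1, statmod 1.5.0; 10 residual and 1.8 prior degrees of freedom) and Benjamini-Hochberg adjustment over all probes. The first-named sample of a title was taken as Cy5. The fit was tested on simulated data. Of the features, 32042 had 1 gene symbol, 47 several and 12201 none.

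Named are the 15 highest and 15 lowest called genes with the same sign on the direct array and in the fit without it, the members of each list with the largest moderated t (up to 4), 9 check genes, and the 10 highest and 10 lowest called differences between genotypes. The members, lists and reading were chosen with earlier results of these data known. Alternatives covered the reading, dye term, arrays, weights, scaling, probes, filters and each WT animal left out. The 10 dpi arrays entered only the fit on all 20 arrays.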

Additional observations from a re-analysis of the deposited data

Results flagged for a closer look

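The change from naive to 17 dpi differed between TG and WT cord at 1685 probes in a test of the difference itself (interaction term, limma moderated test, adjusted p under 0.05). Genes named in the text with such a difference are given below, 20 of them named for the size of this difference, so their number is not a result. The values below are log2 differences, TG minus WT.

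The lowest differences were those of Arg1 (-3.82), Chil4 (-3.66), H2-Aa (-3.64), H2-Ab1 (-3.56), Lyz1 (-3.45), Ccl5 (-3.35), Gpnmb (-3.33), Tgtp1 (-3.24), Iigp1 (-3.13), Cfb (-3.10), Tgfbi (-3.09) and Cxcl9 (-3.06). Next in order were Igtp (-2.88), Ctsc (-2.73), Ctss (-2.73), Gbp3 (-2.70), H2-DMb2 (-2.57), Plbd1 (-2.48), H2-DMb1 (-2.47), Cd74 (-2.43), Ms4a6d (-2.36), B2m (-2.34), Fpr2 (-2.29) and Trim30a (-2.15). These were followed by Wfdc17 (-2.05), H2-T22 (-1.93), Ly6c1 (-1.89), Ncf1 (-1.81), Ifi27l2a (-1.79), Erap1 (-1.79), C1qb (-1.78), Vim (-1.72), Itgb2 (-1.68), Irf8 (-1.65), Aif1 (-1.62) and Cebpb (-1.61). Then came Nkg7 (-1.59), Ifngr1 (-1.58), Timp1 (-1.55), C1qc (-1.52), Mki67 (-1.50), Tgfbr1 (-1.47), Vcam1 (-1.34), Ltb (-1.22), Selplg (-1.19), Lgmn (-1.03), Cflar (-1.02) and Rplp0 (-1.02). The negative differences nearest 0 were those of Rps19 (-0.75) and Slc1a2 (-0.63). Above 0 were Eef1a2 (0.84), Igfbp5 (0.88), Uchl1 (0.92), Cdkn1c (1.17), Ntsr2 (1.25), Lratd1 (1.30), Gabra2 (1.32), Prr18 (1.35), Serpinb1c (1.37), Hbb-bt (1.54) and Hba-a1 (1.76).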

How the results depend on the processing

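The probe counts were 6087 for the change at 17 dpi, 1685 for the difference between genotypes and 2885 for the change from 17 to 80 dpi. Other settings gave, in this order, 0, 0 and 0 with ratios in title order, 0, 7 and 76 with the direct array turned, 4054, 1274 and 1522 with no dye term, 7114, 2998 and 3481 with all 20 arrays, 2140, 1497 and 2532 without the direct array, 574 and 28 without the 80 dpi arrays, 8929, 4692 and 5475 with arrays taken as independent, 6394, 4600 and 8004 with array weights, 3563, 913 and 1999 with arrays scaled to 1 spread, 3591, 967 and 1738 with probes averaged per gene, 4305, 700 and 1452 with an animal correlation of 0.4 (added after seeing the data) and 15998, 7237 and 11368 without the widest array (added after seeing the data). All 3 counts stayed within 1.5 times with no filter on missing values, with a value required on all 16 arrays and with robust empirical Bayes. Leaving out 1 WT animal at a time gave 1269 to 20397 for the change at 17 dpi. Leaving out 1 WT animal at a time gave 784 to 13056 for the difference between genotypes. Leaving out 1 WT animal at a time gave 1271 to 15721 for the change from 17 to 80 dpi. Without the 80 dpi arrays the change from 17 to 80 dpi has no value. An animal correlation of 0.5 and an intensity trend in the empirical Bayes step were not run, since the former has a singular covariance and the ratios carry no signal level. No paired analysis was possible because the replicate numbers are animal numbers that are not shared as pairs between the groups. Depth is not a property of these arrays, and signal over background is not given. Precision is limited by the number of arrays and by 2 WT animals at 17 dpi. The p-values rest on the residual spread over all 16 arrays of the model, with 1 pooled animal correlation for all probes. They do not measure the spread between WT animals at 17 dpi and naive WT animals alone. The cause of these differences was not tested.

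Signs that turned are given here by setting. With ratios in title order, values crossed 0 for Iigp1 -0.10, Lyz1 -1.59, Gbp3 -0.45, H2-Ab1 -1.27, Wfdc17 -0.93, Ctsc -0.74, Tgtp1 -0.084, H2-Aa -1.22, Trim30a -0.94, Igtp -0.34, Plbd1 -1.66, Ms4a6d -1.48, Ctss -0.95, Snap25 0.70, Ndrg4 0.71, Bcan 0.14, Ube2ql1 0.23, Glra1 0.27, Eef1a2 0.60, Scn8a 0.72, Hba-a1 0.12, Pcsk1n 0.42, Map1b 0.055, Aif1 -0.39, Cd4 -0.41, Cd74 -0.85, Gfap -0.54, Nefl 0.94, Nfkbia -0.68, P2ry12 -0.53, Vim -1.53, Slc6a11 0.30, Slc7a10 0.33, Cd37 -0.46, Cd79b -0.29, Mki67 -0.58, Mcm3 -0.80, Ebp -0.058, Dhcr7 0.33, C1qc -1.15, C1qb -0.96, Ifngr1 -0.86, Il1rn -0.48, Rplp0 -0.25, Rps19 -0.085, Slco1a4 0.010, Timp1 -0.58, Tsc22d3 0.36, Selplg -0.24, Tgfbr1 -0.57, Cxcl9 -0.17, Ccl5 -0.71, Ifi27l2a -0.42, Irf8 -0.83, Vcam1 -0.67, Itgb2 -0.50, Lgmn -0.46, Ncf1 -0.87, Erap1 -0.91, H2-T22 -0.30, H2-DMb1 -0.77, H2-DMb2 -0.64, Pllp 0.17, Uchl1 0.43, Prph 0.27, Fpr2 -0.85, S100a8 -1.10, Cebpb -0.52, Cflar -0.48, S100a10 -0.86, Hba-a2 0.20, Egr2 -1.05, Ryr1 0.034, Slc32a1 0.86, Sv2a 0.10, Ltb -0.32, Nkg7 -0.80, Kcnc1 0.35, Kcnab2 0.027, Hbb-bt 0.37, Prr18 0.070, Gabra2 0.18, Lratd1 0.50, Ntsr2 0.011, Cdkn1c 0.38, Gpnmb -2.88, Il1b -0.54, Ifng -0.35, Tnf -0.29, Serpina3n -0.57, Mog 0.25, B2m -1.33, Slc1a2 -0.31, Aldh1l1 -0.15, median of cell cycle -0.31, median of complement -0.96, median of cytokines and cytokine receptors of T helper cells and macrophages -0.41, median of cytosolic ribosomal proteins -0.12, median of endothelial and barrier markers 0.061, median of extracellular matrix and scar genes -0.41, median of homeostatic microglia markers -0.35, median of inflammatory chemokines -0.30, median of interferon response -0.49, median of leukocyte adhesion and entry -0.48, median of lysosomal cathepsins and phagocyte lysosome genes -0.74, median of macrophage and microglia markers -0.95, median of MHC class I and peptide loading -0.36, median of MHC class II antigen presentation -0.79, median of myelin and oligodendrocyte markers 0.26, median of neuronal and neurofilament markers 0.19, median of neutrophil markers -0.51, median of NF-kappaB subunits and feedback genes -0.52, median of reactive astrocyte genes -0.51, median of red blood cell genes 0.13, median of synaptic genes 0.22, median of T cell markers -0.18 and median of voltage-gated ion channels 0.20 (change at 17 dpi), and Hba-a1 -0.36, Hbb-bt -0.22, Lratd1 -0.25, Uchl1 -0.32, H2-Aa 0.76, H2-Ab1 1.01, Lyz1 1.49, Ccl5 0.30 and Gpnmb 1.54 (difference between genotypes), and Lyz1 -1.18, Gpnmb -0.041, Vim -0.77 and C1qc -0.81 (change from 17 to 80 dpi). With the direct array turned, values crossed 0 for Trim30a -0.24, Plbd1 -0.28, Ms4a6d -0.15, Snap25 0.30, Ndrg4 0.65, Glra1 0.37, Eef1a2 0.0094, Scn8a 0.51, Mbp 0.012, Pcsk1n 0.026, Cd4 -0.12, Nefl 0.71, Nfkbia -0.40, Slc6a11 0.028, Slc7a10 0.030, Cd37 -0.15, Cd79b -0.19, Mki67 -0.17, Mcm3 -0.47, Dhcr7 0.22, Il1rn -0.32, Slco1a4 0.14, Tsc22d3 0.15, Erap1 -0.21, Pllp 0.31, Uchl1 0.033, Fpr2 -0.15, Cebpb -0.063, S100a10 -0.43, Hba-a2 0.044, Egr2 -0.43, Ryr1 0.12, Slc32a1 0.43, Kcnc1 0.081, Cdkn1c 0.16, Il1b -0.65, Ifng -0.17, Tnf -0.13, Mog 0.30, B2m -0.10, Slc1a2 -0.16, Aldh1l1 -0.038, median of cell cycle -0.12, median of cytokines and cytokine receptors of T helper cells and macrophages -0.18, median of endothelial and barrier markers 0.087, median of inflammatory chemokines -0.32, median of interferon response -0.059, median of myelin and oligodendrocyte markers 0.24, median of neutrophil markers -0.17, median of NF-kappaB subunits and feedback genes -0.28, median of reactive astrocyte genes -0.16, median of synaptic genes 0.054 and median of voltage-gated ion channels 0.081 (change at 17 dpi). Without the direct array, values crossed 0 for Nfkbia -0.37 and median of neutrophil markers -0.077 (change at 17 dpi), and Lyz1 -0.049 (change from 17 to 80 dpi). With array weights, values crossed 0 for Vim -0.13 (change from 17 to 80 dpi). With arrays scaled to 1 spread, values crossed 0 for Nfkbia -0.0053 (change at 17 dpi). Without WT 17 dpi animal 1, values crossed 0 for Nefl 0.42, Nfkbia -0.97 and median of extracellular matrix and scar genes -2.3e-05 (change at 17 dpi), and Lyz1 -0.74 and C1qc -0.069 (change from 17 to 80 dpi). Without naive animal 2, values crossed 0 for Nfkbia -0.26 and median of neutrophil markers -0.054 (change at 17 dpi), and Lyz1 -0.056 (change from 17 to 80 dpi). Over the 5 WT animals left out in turn, values that crossed 0 ran from -1.02 to 0.42 for Nefl (change at 17 dpi), -0.97 to 0.49 for Nfkbia (change at 17 dpi), -0.74 to 0.92 for Lyz1 (change from 17 to 80 dpi), -0.069 to 0.27 for C1qc (change from 17 to 80 dpi), -2.3e-05 to 0.35 for median of extracellular matrix and scar genes (change at 17 dpi) and -0.054 to 0.67 for median of neutrophil markers (change at 17 dpi).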
